A study of Mus musculus with 6 samples.

Results

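Nuclear pore and nuclear transport genes were followed in mouse embryos through total and newly labelled RNA. The 44 genes, of 23259 gene names in the table, were chosen by name: those starting with Nup, Kpna, Kpnb, Ipo, Xpo or Tnpo and a digit, without names marked as pseudogenes. Of these, 22 are nucleoporin names and 22 are transport receptor names. The embryos were Pabpn1l-null zygotes, wild-type (WT) 2-cell embryos and WT zygotes, with 2 samples per group and 50 embryos per sample. All carried 4-thiouridine, a modified uridine taken into RNA as it is transcribed, given at 200 μM for 2 h from 26 h after the hCG injection. Alkylation makes the analogue read as a T-to-C mismatch, so the T-to-C reads contain the RNA synthesised in that window. No unlabelled control was analysed here, and the background among T-to-C reads is unknown. All 6 samples carry one protocol text, which describes zygotes; when the 2-cell embryos were collected, the strain, and the allele behind the Pabpn1l-null label are not stated in the labels.

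Nuclear pore complexes are the channels through the nuclear envelope. A Y complex and an inner ring of nucleoporins build the scaffold, nucleoporins with phenylalanine-glycine repeats fill the channel, and filaments and a basket extend to the cytoplasmic and nuclear sides. Importin alpha proteins bind a nuclear localisation signal and travel through the pore with importin beta, transportins and other importins carry cargo directly, and exportins carry cargo out, with the GTPase Ran setting the direction. The oocyte stores these mRNAs and proteins for the embryo, which depends on them until its own genome is active. PABPN1L binds poly(A) tails in oocytes and takes part in the decay of stored maternal mRNA.

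Each group has 1 pair of columns in the table, for total and T-to-C reads, so the spread between samples of a group is unknown. Each test compares libraries, not conditions, and both comparisons use the same WT zygote column. Named genes held 1270347 reads in null zygotes, 4020444 in WT 2-cell embryos and 3001472 in WT zygotes, and T-to-C reads made up 3.86% of them in null zygotes, 4.54% in WT 2-cell embryos and 3.03% in WT zygotes. Counts were set on a common scale by TMM factors and are given as RPM, scaled reads for each 1000000 reads of a column. A gene was called at a difference of at least 2-fold with a Benjamini-Hochberg adjusted p under 0.05 over all tested genes, in an exact conditional binomial test that counts 7 reads as 1 molecule. Reads of low genes in the null column were clumped: among 1295 genes predicted to have 3 to 5 reads there, 58.3% had none, where drawing each read alone predicts 2.45%. Intervals in parentheses are exact 95% intervals on such molecules and cover counting error only. Oocyte markers summed to 24276, 16681 and 45046 reads in null zygotes, WT 2-cell embryos and WT zygotes, and none of the 11 was at 0 in any group. The 5 markers of the 2-cell stage found in the table summed to 21 reads in null zygotes, 7681 in WT 2-cell embryos and 200 in WT zygotes. The 12 cumulus and granulosa cell markers summed to 27, 99 and 140 reads in those groups, and 7 sperm markers to 5, 4 and 11. Pabpn1l itself had 4 reads in null zygotes, 14 in WT 2-cell embryos and 47 in WT zygotes, with no T-to-C read. Its null to WT ratio of 0.192 (0.00716 to 2.51) was not called, so these counts are too low to check the genotype label.

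Members took 0.531% of the reads of null zygotes, 0.620% of those of WT 2-cell embryos and 0.548% of those of WT zygotes. Of the 44, 40 had the 20 reads over the 3 columns needed for a test of total reads and 20 had the 10 needed for T-to-C reads. Nup210, Nup210l, Nup62-il4i1 and Ipo13 were too low to test. In WT 2-cell embryos against WT zygotes, 16 of 40 members were called, beside 34.1% of all tested genes. Of these, 5 were higher, beside 17.2% of all genes higher, and 11 were lower, beside 16.9% lower. The Nup-named genes held 8 lower and 0 higher calls among 19 tested, while the receptors held 3 lower and 5 higher among 21. The split holds for the name rule only. Among pore genes with other names, Pom121, Ranbp2 and Ahctf1 were called higher, and Sec13 and Rae1 lower. Counting each read as 1 molecule called 23 of 40 members, 9 higher and 14 lower, beside 59.3% of all tested genes. Under that count 2 Nup-named genes, Nup133 and Nup62cl, were called higher, and Nup85 joined those called lower. Nup133 had 11 reads in WT 2-cell embryos and 1 in WT zygotes. The median log2 ratio was -0.85 for Nup-named genes, 0.56 for receptors and 0.04 for all tested genes. With RLE in place of TMM scaling the 16 became 17 (8 higher, 9 lower), and the median of all genes moved to 0.28. In Pabpn1l-null against WT zygotes none of 40 members was called, beside 1.43% of all tested genes (0.728% higher and 0.701% lower). The same test gave 7 of the 40 members an unadjusted p under 0.05, beside 1207 of 11262 tested genes. An edgeR exact test called 0 members, beside 1.22% of all genes. The median log2 ratio of null to WT zygotes was -0.32 for members and -0.15 for all genes. A column gives shares of reads, so less RNA of a gene and more of all other RNA cannot be told apart, nor can fewer cells and less RNA per cell.

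**Figure D1:**
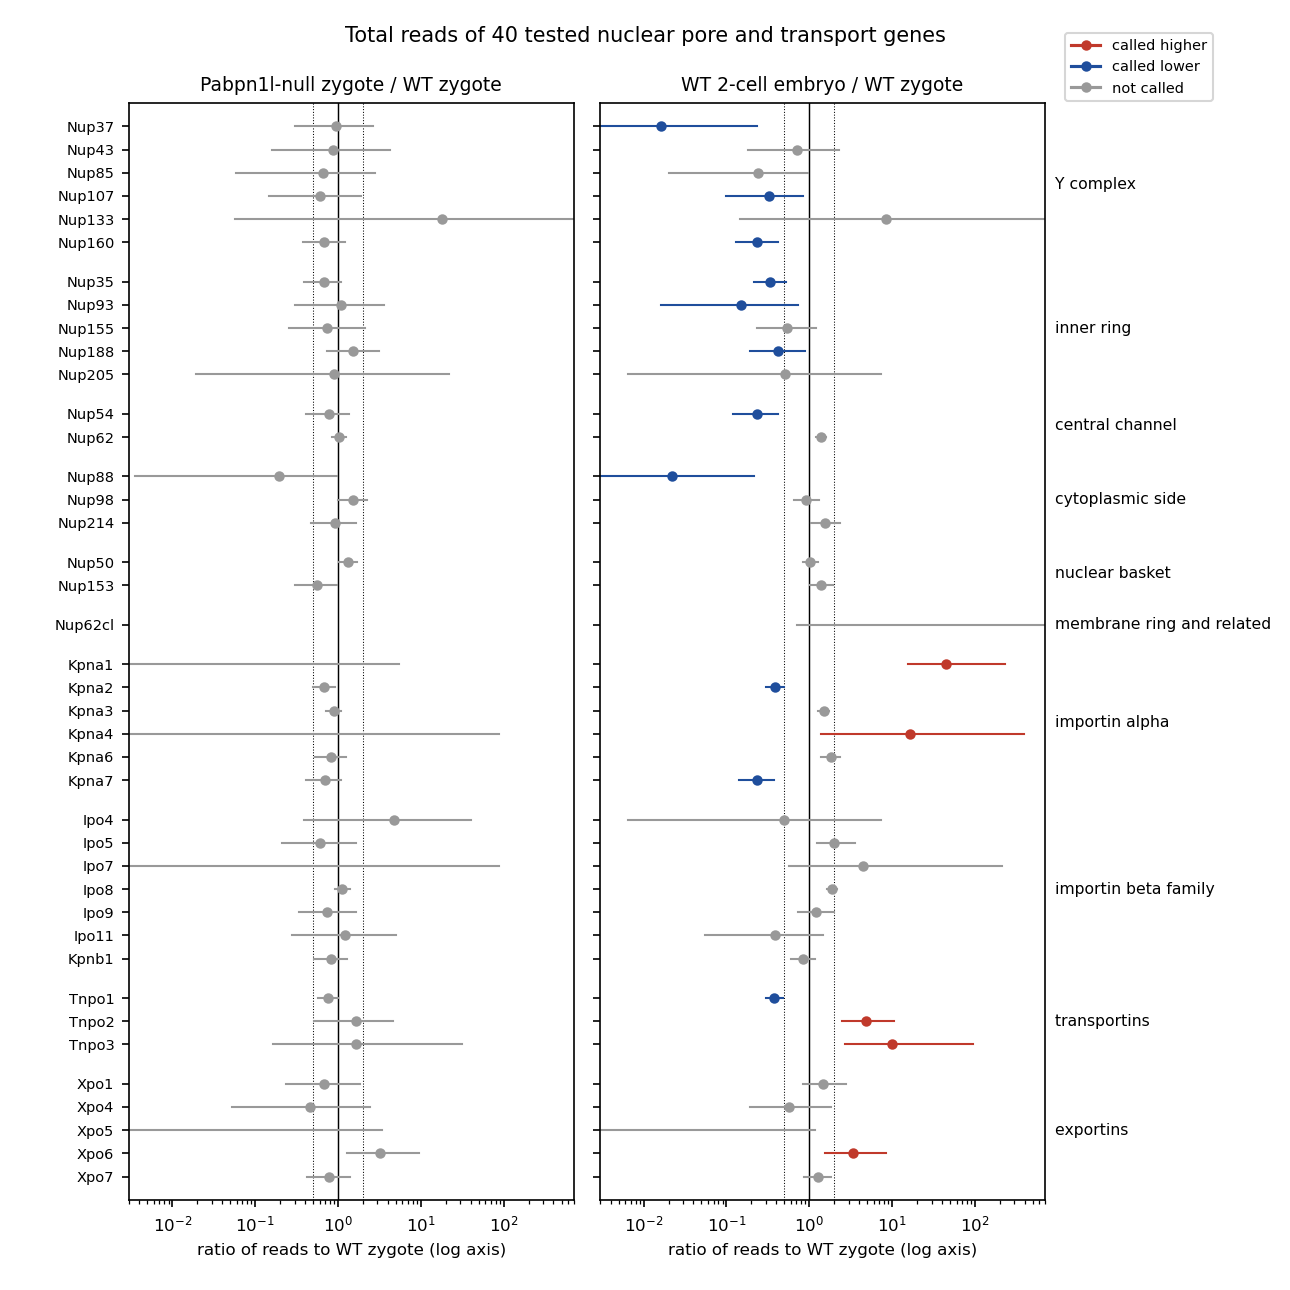
Ratio of scaled total reads to WT zygotes (log axis) for the 40 tested members, grouped by role, in Pabpn1l-null zygotes (left) and WT 2-cell embryos (right). Points are ratios, lines exact 95% intervals cut at the plot edge, and dotted lines mark 2-fold; a row without a point has a column at 0 reads. The 16 coloured members, 5 higher and 11 lower, all stand in the 2-cell panel.

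Promoters are shown for the importin alpha genes and transportins that were called in WT 2-cell embryos and have an entry among RefSeq promoters (GRCm38.p6), so that genes called lower (Kpna7, Kpna2, Tnpo1) can be read beside those called higher (Kpna4, Tnpo2, Tnpo3). They were chosen after the 2-cell values were seen. Each runs from 250 bases before to 50 after the annotated start, 5′ to 3′ along the gene. Kpna7 lies at chr5:145009587-145009886, Kpna2 at chr11:106999476-106999775, Kpna4 at chr3:69127043-69127342, Tnpo1 at chr13:98926335-98926634 and Tnpo3 at chr6:29609800-29610099, all on the minus strand, and Tnpo2 at chr8:85036643-85036942 on the plus strand. Capitals mark letters that match a CCAAT box (CCAAT) on either strand. They also mark a match to the GC box (GGGCGG). In Tnpo2 they mark the E-box as well (CACGTG). In Tnpo3, whose window holds none of these motifs, they mark an ETS site (CCGGAAG).
Kpna7: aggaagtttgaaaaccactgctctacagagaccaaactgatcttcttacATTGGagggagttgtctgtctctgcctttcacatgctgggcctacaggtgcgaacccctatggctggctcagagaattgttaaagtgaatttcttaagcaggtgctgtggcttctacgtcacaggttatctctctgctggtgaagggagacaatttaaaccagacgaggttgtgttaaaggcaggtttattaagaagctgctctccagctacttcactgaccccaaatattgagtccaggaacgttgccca
Kpna2: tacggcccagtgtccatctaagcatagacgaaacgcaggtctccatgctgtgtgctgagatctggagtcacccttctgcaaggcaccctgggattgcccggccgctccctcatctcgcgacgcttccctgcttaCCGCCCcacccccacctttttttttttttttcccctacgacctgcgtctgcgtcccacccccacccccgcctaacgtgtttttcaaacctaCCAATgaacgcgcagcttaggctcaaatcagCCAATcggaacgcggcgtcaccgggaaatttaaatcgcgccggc
Kpna4: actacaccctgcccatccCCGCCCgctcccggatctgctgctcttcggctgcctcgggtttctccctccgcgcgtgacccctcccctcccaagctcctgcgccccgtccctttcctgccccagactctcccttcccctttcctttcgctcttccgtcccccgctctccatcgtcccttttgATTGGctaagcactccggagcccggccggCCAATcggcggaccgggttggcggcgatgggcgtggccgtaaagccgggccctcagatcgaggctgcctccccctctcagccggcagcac
Tnpo1: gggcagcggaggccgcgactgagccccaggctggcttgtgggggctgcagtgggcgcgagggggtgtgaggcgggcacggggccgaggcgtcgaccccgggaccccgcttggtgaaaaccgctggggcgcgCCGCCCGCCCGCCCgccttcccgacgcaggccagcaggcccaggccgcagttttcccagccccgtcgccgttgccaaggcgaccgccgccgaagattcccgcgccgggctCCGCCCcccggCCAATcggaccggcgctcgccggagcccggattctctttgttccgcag
Tnpo2: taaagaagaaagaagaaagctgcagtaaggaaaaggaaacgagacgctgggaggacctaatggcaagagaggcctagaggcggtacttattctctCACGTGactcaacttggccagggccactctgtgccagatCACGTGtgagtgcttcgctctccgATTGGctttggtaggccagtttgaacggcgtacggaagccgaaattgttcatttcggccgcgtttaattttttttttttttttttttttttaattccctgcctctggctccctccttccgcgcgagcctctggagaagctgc
Tnpo3: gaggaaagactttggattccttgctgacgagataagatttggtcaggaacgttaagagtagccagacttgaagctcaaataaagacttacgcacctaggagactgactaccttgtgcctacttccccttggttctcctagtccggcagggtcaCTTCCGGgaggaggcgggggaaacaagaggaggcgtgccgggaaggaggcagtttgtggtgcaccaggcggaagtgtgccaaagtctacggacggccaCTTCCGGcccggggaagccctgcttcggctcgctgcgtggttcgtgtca
The Kpna7 window has 46.7% G and C and a CpG frequency of 0.245 of that predicted from its base composition. Kpna2, Kpna4, Tnpo1, Tnpo2 and Tnpo3 have CpG ratios of 1.05, 0.851, 0.938, 0.936 and 0.723. Over the 34 members with an entry the median was 64.2% G and C and a CpG ratio of 0.918, against 52.7% and 0.389 over all 27025 promoters. The 27025 windows were not filtered by gene type or by reads in these embryos, so they are not a matched reference. A CCAAT match stood in 58.8% of member windows and 37.9% of all windows, and a GGGCGG match in 67.6% and 35.9%. The motif TATAAA was found in 5.88% of member windows and 14.2% of all, CCGGAAG in 17.6% and 9.12%, and CACGTG in 17.6% and 7.24%. The 4 member windows of genes called higher had a median CpG ratio of 0.848, and the 10 of genes called lower 0.786. CCAAT stood in 3 of the 4 and in 6 of the 10. A match is a match of letters alone, and such composition is a property of the annotated windows and not a measurement in these embryos.

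Of the 6 importin alpha genes, 2 were called lower and 2 higher in 2-cell embryos, beside 16.9% and 17.2% of all tested genes. Kpna2 encodes the importin alpha abundant in oocytes and embryonic stem cells, and Kpna7 the member whose expression centres on oocytes and early embryos. Kpna2 had 294 RPM in null zygotes, 167 in WT 2-cell embryos and 430 in WT zygotes. Kpna7 had 123 in null zygotes, 41.3 in WT 2-cell embryos and 178 in WT zygotes. Both were lowest in 2-cell embryos, with null zygotes between. The 2-cell to WT zygote ratio was 0.388 (0.297 to 0.498) for Kpna2, with an adjusted p of 1.72e-13 in the exact binomial test. For Kpna7 it was 0.232 (0.140 to 0.377), with an adjusted p of 3.20e-10 in the same test. The null to WT ratios, 0.683 (0.50 to 0.932) and 0.691 (0.409 to 1.10), had exact binomial adjusted p of 0.229 and 0.718.

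Kpna1 and Kpna4, which encode importin alpha proteins found in many tissues, were called higher in 2-cell embryos. Kpna1 had 0 reads in null zygotes, 1268 in WT 2-cell embryos and 22 in WT zygotes, a 2-cell to WT zygote ratio of 44.5 (15.7 to 228). Its exact binomial adjusted p was 5.75e-39. Kpna4 had 0 reads in null zygotes, 85 in WT 2-cell embryos and 4 in WT zygotes. Its ratio of 16.4 (1.37 to 396) rests on few reads, with an exact binomial adjusted p of 0.0267. Both genes were near their limit of detection in both zygote groups: a count of 0 was taken to allow 21 reads. Kpna3 and Kpna6 were measured well in all groups. Kpna3 had 627 RPM in null zygotes, 1054 in WT 2-cell embryos and 708 in WT zygotes, and Kpna6 had 165, 365 and 201 in those groups. Their 2-cell to WT zygote ratios, 1.49 (1.29 to 1.72) and 1.82 (1.40 to 2.36), passed the exact binomial test (adjusted p = 9.02e-08 and 1.37e-05) but lay under 2-fold. With RLE factors Kpna6 was called higher (log2 ratio 1.12, exact binomial adjusted p = 3.57e-09). Summed over all 6 genes, the ratio was 1.30 (1.17 to 1.43) in 2-cell embryos and 0.792 (0.680 to 0.924) in null zygotes, each against WT zygotes. No importin alpha gene was called in null zygotes.

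**Figure D2:**
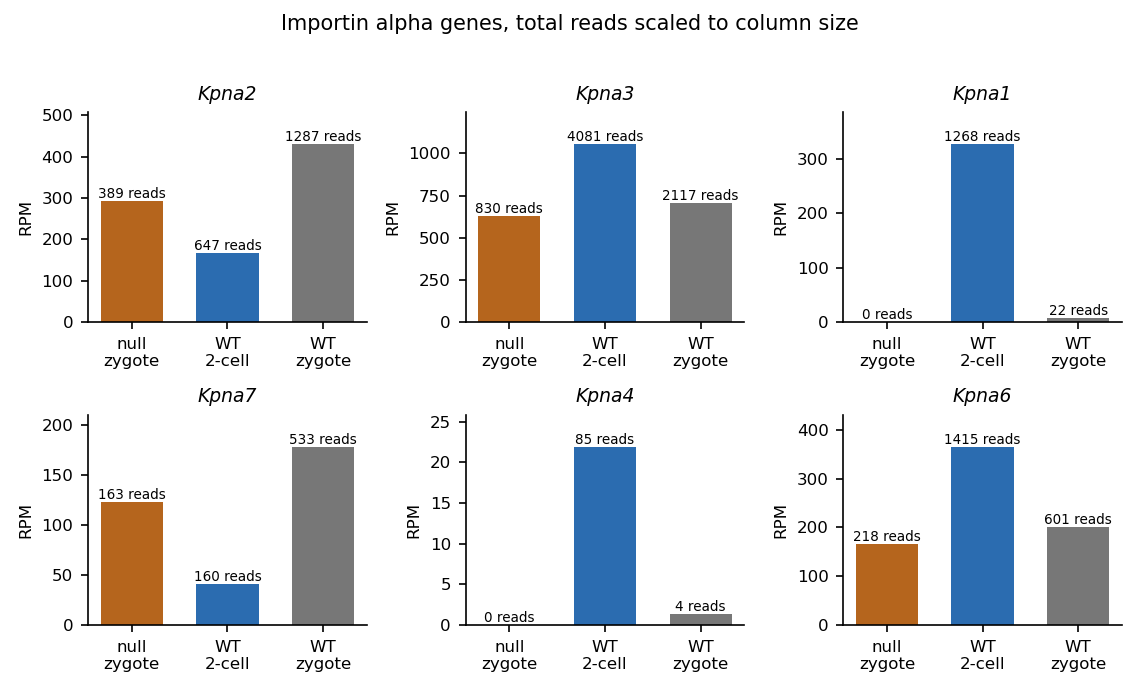
Total reads of the 6 importin alpha genes in the columns of Pabpn1l-null zygotes, WT 2-cell embryos and WT zygotes, as RPM (linear axes from 0, each gene on its own scale), with raw reads above each bar; there is 1 column per group, so no error bar can be drawn. Kpna2 and Kpna7 are lowest in 2-cell embryos (647 and 160 reads), and the other 4 are highest there.

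In the main test, with TMM scaling and 7 reads as 1 molecule, no member of the importin beta family was called. With each read as 1 molecule, Ipo5 and Ipo7 were called higher and Ipo11 lower in 2-cell embryos, beside 59.3% of all tested genes called. That count also called Ipo4 higher in null zygotes, beside 24.2% of all tested genes called. With RLE factors Ipo5 and Ipo8 were called higher, with log2 ratios of 1.25 and 1.17 (exact binomial adjusted p = 0.000931 and 4.03e-33). Ipo8, an importin for Smad and Argonaute proteins, had 783 RPM in null zygotes, 1304 in WT 2-cell embryos and 695 in WT zygotes. Its 2-cell ratio of 1.87 (1.63 to 2.15) passed the exact binomial test (adjusted p = 9.23e-20) but not the fold. Ipo5, an importin of ribosomal proteins and histones, had 40 reads in null zygotes, 391 in WT 2-cell embryos and 150 in WT zygotes, a 2-cell ratio of 2.01 (1.23 to 3.58) with an exact binomial adjusted p of 0.0121. The main test did not call Ipo5 because its log2 ratio with 0.5 molecule added, 0.99, lay just under 2-fold. Kpnb1, which encodes importin beta itself, had 142, 147 and 174 RPM in null zygotes, WT 2-cell embryos and WT zygotes, levels that overlapped in counting error. The 7 tested genes of the family had 2-cell ratios of 0.386 (Ipo11) to 4.41 (Ipo7), and the intervals at both ends held 1. Ipo7, with 40 reads in WT 2-cell embryos, overlaps Snora23, which had 6, 92 and 0 reads in null zygotes, WT 2-cell embryos and WT zygotes. Summed over all 8 genes, the ratio was 1.64 (1.46 to 1.84) in 2-cell embryos and 1.04 (0.871 to 1.23) in null zygotes, each against WT zygotes. Of this sum Ipo8 held the most reads.

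All 3 transportins were called in 2-cell embryos, and not in 1 direction, beside 34.1% of all tested genes called. Tnpo1, the import receptor of many RNA-binding proteins, had 380 RPM in null zygotes, 191 in WT 2-cell embryos and 506 in WT zygotes. Tnpo2, its close paralogue, had 38.5 in null zygotes, 113 in WT 2-cell embryos and 23.1 in WT zygotes. The paralogues were lowest and highest, in turn, in 2-cell embryos: the 2-cell to WT zygote ratio was 0.378 (0.297 to 0.480) for Tnpo1 and 4.91 (2.48 to 10.6) for Tnpo2. Exact binomial adjusted p were 4.03e-16 and 5.60e-07. Tnpo3, the receptor of serine-arginine splicing factors, had 11 reads in null zygotes, 197 in WT 2-cell embryos and 15 in WT zygotes, a 2-cell ratio of 10.1 (2.73 to 93.6) with an exact binomial adjusted p of 9.58e-05. It overlaps Irf5, which had 0, 11 and 0 reads in those groups. The Tnpo1 excess in WT zygotes outweighs both gains, so the summed transportin ratio of 2-cell embryos to WT zygotes was 0.665 (0.548 to 0.811).

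Of 5 tested exportins, 1 was called in 2-cell embryos, beside 34.1% of all tested genes. Xpo6, the exportin of actin, had 62.0 RPM in null zygotes, 64.0 in WT 2-cell embryos and 19.1 in WT zygotes. Both other groups stood above WT zygotes, by 3.25 (1.27 to 9.56) in null zygotes, where the exact binomial adjusted p was 0.147, and by 3.36 (1.54 to 8.43) in 2-cell embryos, where it was 0.00357. These ratios share the 57 reads of the WT zygote column. Xpo1, Xpo4 and Xpo7 had 2-cell ratios of 0.567 to 1.48, with intervals that held 1. Xpo5, the exportin of microRNA precursors, had 0 reads in null zygotes, 0 in WT 2-cell embryos and 28 in WT zygotes, and neither comparison was called. It is named for its zero counts.

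In the pore scaffold the called Nup-named genes were all lower in 2-cell embryos. Of the 6 Nup-named Y complex genes, Nup107, Nup160 and Nup37 were called, beside 16.9% of all tested genes called lower. Nup160 had 87.6 RPM in null zygotes, 29.9 in WT 2-cell embryos and 128 in WT zygotes, a 2-cell ratio of 0.233 (0.130 to 0.417) with an exact binomial adjusted p of 2.13e-07. Nup37, which anchors to Nup160 in the complex, had 40 reads in null zygotes, 2 in WT 2-cell embryos and 96 in WT zygotes, a 2-cell ratio of 0.0161 (0 to 0.233) with an exact binomial adjusted p of 4.77e-05. Nup37 was nearly absent from the deepest column and present in both zygote columns. Nup107 had 28 reads in null zygotes, 44 in WT 2-cell embryos and 105 in WT zygotes (2-cell ratio 0.324, 0.0982 to 0.842), and this call was lost with RLE factors, with no filter on low counts and in the edgeR exact test. The summed ratio of these 6 genes was 0.261 (0.170 to 0.389) in 2-cell embryos and 0.742 (0.479 to 1.11) in null zygotes, each against WT zygotes. The Y complex also holds Sec13 and Seh1l and binds Ahctf1, which the name rule leaves out. With these 3 added, the summed ratio was 0.592 (0.457 to 0.770) in 2-cell embryos and 0.709 (0.497 to 1.01) in null zygotes. Sec13 was called lower in 2-cell embryos and Ahctf1 higher, and Seh1l, with 51 reads in null zygotes, 87 in WT 2-cell embryos and 50 in WT zygotes, was not called.

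The inner ring held 3 lower calls among 5 genes in 2-cell embryos, beside 16.9% of all tested genes called lower. Nup35, a membrane-binding inner ring protein, had 119 RPM in null zygotes, 59.1 in WT 2-cell embryos and 177 in WT zygotes, a 2-cell ratio of 0.335 (0.218 to 0.518). Nup93, a linker that ties the ring to the channel, had 34 reads in null zygotes, 14 in WT 2-cell embryos and 71 in WT zygotes, a 2-cell ratio of 0.152 (0.0164 to 0.725). Both were lowest in 2-cell embryos, with exact binomial adjusted p of 6.06e-07 and 0.0201. Nup188, a large scaffold protein, had 77.1 RPM in null zygotes, 21.4 in WT 2-cell embryos and 51.5 in WT zygotes; its 2-cell ratio of 0.416 (0.190 to 0.889) lost its call with RLE factors, with no filter and in the edgeR exact test. Nup155 and Nup205 were not called. The summed ratio was 0.365 (0.264 to 0.50) in 2-cell embryos and 0.862 (0.599 to 1.20) in null zygotes, each against WT zygotes.

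The channel, the cytoplasmic side and the basket had summed 2-cell to WT zygote ratios of 1.25 (1.09 to 1.42), 1.02 (0.799 to 1.31) and 1.13 (0.954 to 1.34). Nup54 and Nup62 form one channel subcomplex. Nup54 had 89.9 RPM in null zygotes, 26.9 in WT 2-cell embryos and 116 in WT zygotes, and its 2-cell ratio of 0.231 (0.121 to 0.419) was called, with an exact binomial adjusted p of 4.03e-07. Nup62 had 777 in null zygotes, 1054 in WT 2-cell embryos and 751 in WT zygotes, a 2-cell ratio of 1.40 (1.22 to 1.61) that lay under 2-fold. Nup54 was thus lowest and Nup62 highest in 2-cell embryos; Nup62 overlaps Atf5, which had 8, 79 and 37 reads in null zygotes, WT 2-cell embryos and WT zygotes. Nup88, which holds Nup214 at the cytoplasmic face, had 9 reads in null zygotes, 3 in WT 2-cell embryos and 106 in WT zygotes. Its 2-cell ratio of 0.0218 (0 to 0.215) had an exact binomial adjusted p of 2.19e-05, and its null ratio of 0.192 (0.00358 to 0.979) one of 0.362. WT zygotes alone held more than a few Nup88 reads. Nup88 overlaps Rabep1, which had 50, 121 and 111 reads in null zygotes, WT 2-cell embryos and WT zygotes, and whether the counting used strand is not stated. Nup50, a basket protein that speeds release of importin alpha cargo, had 532 RPM in null zygotes, 412 in WT 2-cell embryos and 401 in WT zygotes, with a 2-cell ratio of 1.03 (0.841 to 1.26). Nup62cl, a Nup62 relative named for its zero counts, had 0 reads in both zygote columns and 36 in WT 2-cell embryos, and was not called.

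**Figure D3:**
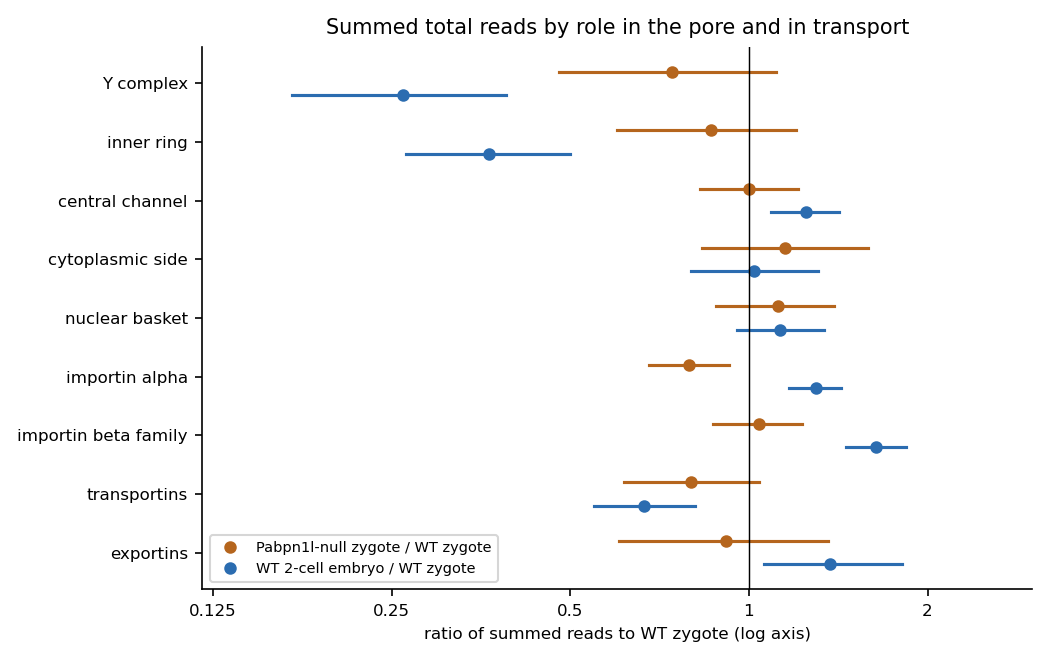
Ratio of summed total reads to WT zygotes (log axis) for the members of each role, in Pabpn1l-null zygotes and WT 2-cell embryos. Lines are exact 95% intervals for counting error. Nup210, Nup210l, Nup62cl and Nup62-il4i1, with 8 reads together in WT zygotes, are left out. The 6 Nup-named Y complex genes (0.261) and the inner ring (0.365) lie lowest in 2-cell embryos.

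No member was called in null zygotes, where counting error was wide. Among the 23 members with at least 100 reads in WT zygotes, the null to WT ratio ran from 0.192 (Nup88) to 1.53 (Nup98), with a median of 0.751, and 18 of the 23 intervals held 1. Of those intervals 8 lay wholly between 0.5 and 2, and the other 15 reached past 2-fold in at least 1 direction. The filter uses the WT zygote reads, which are also the divisor of the ratio, so it favours ratios under 1. The same figures for all genes under this filter are not given here. The 7 members at an unadjusted exact binomial p under 0.05, beside 1207 of 11262 tested genes, were Kpna2, Nup153, Nup50, Nup88, Nup98, Tnpo1 and Xpo6. None passed the Benjamini-Hochberg adjustment. Null zygotes had no read for 8 members, among them Kpna1 and Kpna4, beside 2 members without a read in WT 2-cell embryos and 1 in WT zygotes. The null column also had the fewest reads, 1270347, and clumped low counts. The share of all genes at 0 in each column is not given here, and these zero counts were not tested as a set.

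Labelled RNA was called for 2 members. In T-to-C reads of WT 2-cell embryos against WT zygotes, 2 of 20 members were called, both higher, beside 6.03% of all tested genes and 4.34% higher. Kpna6, whose loss from the mouse egg stops development early in cleavage, had 0 T-to-C reads in null zygotes, 120 in WT 2-cell embryos and 4 in WT zygotes. Nearly all its T-to-C reads stood in 2-cell embryos, a 2-cell to WT zygote ratio of 23.2 (2.06 to 548) with an exact binomial adjusted p of 0.0133. Nup62 had 31 T-to-C reads in null zygotes, 268 in WT 2-cell embryos and 58 in WT zygotes, a ratio of 3.57 (1.69 to 9.10) with an exact binomial adjusted p of 0.00681. Scaling T-to-C reads by the T-to-C total of each column ended both calls and left 0 of 20, and the edgeR exact test ended the Nup62 call (adjusted p = 0.115). Tnpo2 had 21 in null zygotes, 84 in WT 2-cell embryos and 6 in WT zygotes, and its 2-cell ratio of 10.8 was not called (exact binomial adjusted p = 0.115). It was called higher with RLE factors (exact binomial adjusted p = 0.0494) and in the edgeR exact test (adjusted p = 0.0136). The median log2 ratio of T-to-C reads was -0.39 for members and 0.26 for all genes.

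T-to-C reads of the members called higher in total reads varied. Kpna1 had 17 T-to-C reads among its 1268 in WT 2-cell embryos, 1.34%, against 4.54% for all reads of that column. Kpna4 had 3 among 85, Tnpo3 had 1 among 197, Xpo6 had 0 among 248 and Tnpo2 had 84 among 439, 19.1%. These shares were not tested against the column. Kpna2 had 6, 6 and 26 T-to-C reads in null zygotes, WT 2-cell embryos and WT zygotes, and Kpna7 had 3, 0 and 7. Ipo8 had 39.3 T-to-C RPM in null zygotes, 29.4 in WT 2-cell embryos and 31.1 in WT zygotes, and Kpna3 had 24.2, 23.0 and 26.8 in those groups. The T-to-C levels of both were not called in either comparison. Their T-to-C shares were 5.01% and 3.86% in null zygotes, 2.26% and 2.18% in WT 2-cell embryos, and 4.47% and 3.78% in WT zygotes. Neither share was called in either comparison by Fisher's exact test with 7 reads as 1 molecule. With each read as 1 molecule, that test called 7 of 28 member shares in 2-cell embryos, beside 15.7% of all genes. Ipo8 and Kpna3 were among the 4 called lower than in WT zygotes (Fisher's exact adjusted p = 1.99e-05 and 0.00369). Kpna6, Nup62 and Nup50 were the 3 called higher. Nup43 and Nup85 are named for a T-to-C share that was high in every column, though on few reads. In null zygotes, WT 2-cell embryos and WT zygotes Nup43 had 8 of 18, 10 of 43 and 13 of 47 reads (44.4%, 23.3% and 27.7%). Nup85 had 4 of 16, 7 of 17 and 25 of 55 (25.0%, 41.2% and 45.5%) in those groups. Nup43 overlaps Pcmt1, which had 26, 12 and 89 reads in those groups.

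The T-to-C share of a gene does not depend on the scaling. In 2-cell embryos against WT zygotes, 0 of 28 members were called by Fisher's exact test, beside 1.90% of all tested genes (1.84% higher and 0.0579% lower). That test gave 2 members an unadjusted p under 0.05, beside 302 of 6909 genes. Kpna6 had a share of 0% in null zygotes, 8.48% in WT 2-cell embryos and 0.666% in WT zygotes, with a 2-cell adjusted p of 0.545 in Fisher's exact test. Nup62 had 3.01%, 6.56% and 2.58% in those groups, with a 2-cell adjusted p of 0.275 in the same exact test. In null against WT zygotes 0 of 27 members were called, beside 0.0167% of all genes. Fisher's exact test gave 0 of them an unadjusted p under 0.05, beside 48 of 5999 genes. In T-to-C reads of null against WT zygotes 0 of 20 members were called by the exact binomial test, beside 0.0686% of all genes. That test gave 0 members an unadjusted p under 0.05, beside 69 of 4376 genes. The edgeR exact test called 0 members, beside 0.0229% of all genes. No other tool was run on the shares.

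**Figure D4:**
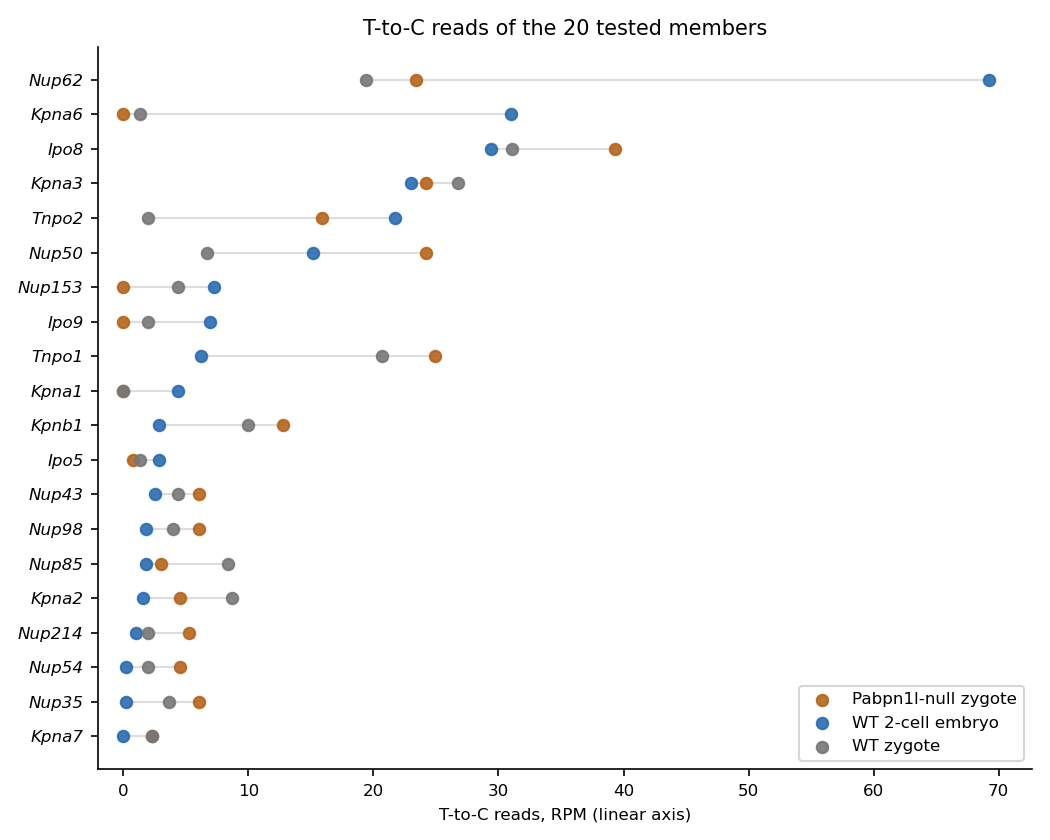
T-to-C RPM (linear axis) of the 20 members tested for T-to-C reads, in Pabpn1l-null zygotes, WT 2-cell embryos and WT zygotes; each point is 1 column and grey lines join the columns of a gene. Nup62 (69.2) and Kpna6 (31.0) stand highest in 2-cell embryos.

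Other genes of pore and transport, which the name rule leaves out, were taken from a list of 37, of which 36 were in the table and 34 were tested. In WT 2-cell embryos against WT zygotes 8 were called higher and 4 lower, 35.3% beside the 34.1% of all genes. Ran, the GTPase itself, had 28.0 RPM in null zygotes, 85.2 in WT 2-cell embryos and 17.4 in WT zygotes, a 2-cell ratio of 4.90 (2.33 to 13.6). Rangap1, the activator of Ran's GTPase, had 17.4, 52.9 and 6.35 in those groups, a 2-cell ratio of 8.33 (2.31 to 38.3), and Ranbp2, which docks it at the pore, had a ratio of 3.96 (1.35 to 24.5). Other genes of the Ran cycle were not called: the 2-cell ratios were 1.06 (0.695 to 1.66) for Rcc1, 1.73 (1.31 to 2.31) for Rcc2, 1.09 (0.0560 to 10.7) for Ranbp1, 1.61 (0.939 to 2.72) for Nutf2 and 0.594 (0.442 to 0.792) for Ranbp3. The membrane nucleoporin Pom121 had 178 RPM in null zygotes, 548 in WT 2-cell embryos and 110 in WT zygotes, a 2-cell ratio of 4.98 (3.65 to 6.92). Ahctf1, the protein that seeds new pores on chromatin, had a 2-cell ratio of 3.70 (1.89 to 8.38), and the mRNA export cofactors Nxt1 and Nxt2 had ratios of 3.54 (1.88 to 7.76) and 3.77 (lower end 1.64). The torsins Tor1b and Tor1a, ATPases of the nuclear envelope, moved apart, with 2-cell ratios of 22.7 (5.07 to 164) and 0.401 (0.282 to 0.552). Tor1b and Tor1a overlap in the annotation, and how reads of the overlap were counted is not stated. Sec13, a Y complex and coat protein, and the mRNA export factors Rae1 and Ddx19a had 2-cell ratios of 0.388 (0.176 to 0.803), 0.308 (0.160 to 0.584) and 0.324 (0.255 to 0.407). In null against WT zygotes 1 of 34 was called: Ddx19b, a paralogue of Ddx19a, had 138 RPM in null zygotes, 64.5 in WT 2-cell embryos and 44.1 in WT zygotes. Its null to WT ratio was 3.13 (1.65 to 5.91), with an exact binomial adjusted p of 0.0127. How reads of the near-identical Ddx19 copies were split is not stated. In T-to-C reads 1 of 21 was called in 2-cell embryos: Rcc2, a relative of the Ran exchange factor, had 1 in null zygotes, 140 in WT 2-cell embryos and 5 in WT zygotes, a 2-cell ratio of 21.6 (2.47 to 640) with an exact binomial adjusted p of 0.00518.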

How the data were processed

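The authors deposited 1 table of counts with 30493 rows; per the file headers it holds, for each group, reads per gene and reads with a T-to-C mismatch. The submitters' processing notes name the build mm10. The aligner, counter, annotation, strandedness, handling of duplicates and whether a column merges both samples of its group are not given there or elsewhere in the sources used. Ribosomal RNA was depleted and RNA alkylated with iodoacetamide, per the labels' protocols.

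Rows with a date for a name (47) were left out, and each gene is represented by its row with most reads. Coordinates are those of RefSeq on GRCm38.p6. TMM factors (edgeR 4.0.16, R 4.3.3) on total reads were 1.04, 0.963 and 0.996 for null zygotes, WT 2-cell embryos and WT zygotes, which also scaled the T-to-C reads. With 1 column pair per group, an exact conditional binomial test (scipy 1.17.1, two-sided) was run on molecules of 7 reads, with 0.5 molecule added before a log2 ratio. T-to-C shares used Fisher's exact test for genes with at least 20 reads in both columns. P-values were Benjamini-Hochberg adjusted over all tested genes. The members, lists and the molecule rule were chosen with earlier results of these data known. Values are given for called members, the 5 with the most reads, all importin alpha genes and Pabpn1l. Outside that rule they are given for Ipo5, Ipo7, Kpnb1 and Nup133, and other members appear in ranges and counts. Promoters, motifs and genes named for zero counts or a high T-to-C share were chosen after their values were seen. Alternatives changed the scaling, filter, molecule rule, test and rows of a gene. Reads are not independent molecules, so intervals cover counting error only.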

Additional observations from a re-analysis of the deposited data

How the results depend on the processing

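No paired analysis was possible because the table gives 1 column pair per group; leaving out single samples could not be run for the same reason. In total reads, members called in 2-cell embryos numbered 16; the count was 9 of 23 tested with a filter of 50 reads in 2 columns (42.8% of all genes called) and 9 (7 of them shared, 5 higher and 4 lower) with an edgeR exact test at an assumed variation of 0.4 (26.3%), and 14 to 23 in the other settings. Kpna1, Kpna4, Nup37, Nup88, Nup93, Tnpo2 and Tnpo3 were called in every setting that tested them. Kpna2, Kpna7, Nup160, Nup35, Nup54, Tnpo1 and Xpo6 lost their calls in the edgeR test alone. In null against WT zygotes the 0 became 7 when each read was 1 molecule (24.2% of all genes) and 1 when only the null column was counted in 7s (3.26%). For T-to-C reads, the 0 in null zygotes became 2 with 1 read per molecule (19.7% of all genes). The 2 in 2-cell embryos became 1 of 3 tested with the 50-read filter (40.9% of all genes), 12 with 1 read per molecule and 12 with 7s in the null column alone (51.0% both), and 0 when scaled by their own totals (5.16%); the edgeR test called 3 (21.4%), with Kpna6 kept and Nup62 lost. For T-to-C shares, 1 read per molecule gave 3 of 27 in null zygotes (13.3% of all genes) and 7 of 28 in 2-cell embryos (15.7%). TMM over both WT columns alone, added after the data were seen, moved no count of calls. Log2 ratios that changed sign were all close to 0 and uncalled: Nup50 in 2-cell total reads (-0.01 with column totals), T-to-C reads of null zygotes for Kpna7 (0.01 with column totals), Nup62 (-0.01) and Tnpo1 (-0.02) with their own totals, and 2-cell T-to-C reads of Ipo8 (0.18) and Kpna3 (0.04) with RLE. The cause of these shifts was not tested. Of the gene values recomputed, 498 kept direction and call, 25 gained a call, 16 lost one and 6 changed sign.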
